A study of Mus musculus with 272 samples.

Results

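The RNA helicases named Ddx (DEAD-box) and Dhx (DEAH-box) were followed from the mouse oocyte to the blastocyst. Members were all symbols of the deposited table made of Ddx or Dhx, a number and at most 1 further letter, with the Y-linked Ddx3y left out. There were 51 such genes (35 Ddx and 16 Dhx) among 15854 symbols. All 51 passed the filter on low values in each kind of comparison.

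RNA helicases use ATP to unwind RNA duplexes or to strip proteins from RNA, and different family members act at successive steps of an RNA's life. Nuclear and nucleolar members drive splicing, messenger RNA export and the maturation of ribosomal RNA, whereas cytoplasmic members act in the start of translation, in the storage and decay of transcripts, and in the sensing of foreign RNA. The growing oocyte stores maternal transcripts, stops transcription as it completes growth, and destroys much of the store around meiotic maturation and fertilization, before the embryonic genome is switched on, mainly in the 2-cell embryo of the mouse.

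The series covers 8 stages: germinal vesicle (GV) oocytes, which are arrested before maturation, metaphase II (MII) oocytes, zygotes, 2-cell, 4-cell and 8-cell embryos, morulae and blastocysts. Each stage has 4 transcriptome libraries from pools of 20 oocytes or embryos, and 3 sucrose gradients loaded with the lysate of about 100 oocytes or embryos and cut into 10 fractions. By their labels, groups differ by stage and kind of library alone, and strain, genotype and age of the mice are not given in the sources used here. The 2-cell transcriptome columns carry the letters E to H, where the transcriptome labels have A to D. Whether these pools form a separate set is not stated. All gradient lysates and gradients contained cycloheximide, which holds ribosomes on their transcripts. The pools came from the batch used for the gradients, so p-values measure the spread between these pools and gradients. Values are CPM, the counts of a gene scaled to its library's total, and every change is a difference of log2(CPM + 1), which understates the change of low genes. CPM is not scaled for gene length, so levels of different genes were not compared. In bulk samples fewer cells of a type and less RNA per cell cannot be told apart, and a CPM is relative to the library and not to the embryo.

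In M (mega) reads, transcriptome libraries held 11.2 to 24.3 and fractions 0.0102 to 43.2, with 4 fraction 1 libraries under 0.2 (GV gradients A and B, 4-cell gradient A, 8-cell gradient C). As sums, stage markers followed the labels. The summed CPM of Gdf9, Bmp15, Zp3 and Nlrp5 was 11290 to 14300 in GV and MII oocytes and 4.42 to 10.9 in blastocysts. That of Krt8, Krt18, Cdx2, Pou5f1 and Lgals1 was 2572 to 3601 in blastocysts. That of Zscan4d, Zfp352 and Tdpoz4 was 1519 to 2156 in 2-cell and 29.5 to 57.2 in 4-cell embryos. Tdpoz4 alone did not fall, with means of 31.8 and 34.2 CPM. Of 4 sperm markers only Prm2 was in the table, with its highest mean, 16.2 CPM, in GV oocytes. The 4 of 8 cumulus and granulosa cell markers in the table summed to at most 32.6 CPM in any transcriptome, with 1 or 2 of the 4 at 0 in every library of each stage but the morula. Their part in the results was not tested.

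In the limma calls described below, the 2-cell to 4-cell transition had 42 of the 51 members called (36 higher, 6 lower). Of all genes tested, 64.8% were called in this transition (31.8% higher, 32.9% lower). Shown are 4 promoters whose genes mark its extremes among the members: the 3 with the largest rise and the 1 with the largest fall. They are the 250 bases before the RefSeq transcript start on build GRCm38.p6, read 5′ to 3′ on the gene's own strand, with CG dinucleotides and the TATA-box letters TATAAA in capitals. Ddx21 lies on the minus strand (chr10:62602299-62602548), Ddx27 on the plus strand (chr2:167015063-167015312), Ddx1 on the minus strand (chr12:13249175-13249424) and Ddx58 on the minus strand (chr4:40239826-40240075).
Ddx21: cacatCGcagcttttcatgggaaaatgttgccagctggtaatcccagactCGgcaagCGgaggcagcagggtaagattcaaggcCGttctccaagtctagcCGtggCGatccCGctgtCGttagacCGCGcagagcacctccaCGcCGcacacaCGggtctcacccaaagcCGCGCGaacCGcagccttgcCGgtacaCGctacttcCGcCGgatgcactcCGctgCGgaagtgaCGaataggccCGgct
Ddx27: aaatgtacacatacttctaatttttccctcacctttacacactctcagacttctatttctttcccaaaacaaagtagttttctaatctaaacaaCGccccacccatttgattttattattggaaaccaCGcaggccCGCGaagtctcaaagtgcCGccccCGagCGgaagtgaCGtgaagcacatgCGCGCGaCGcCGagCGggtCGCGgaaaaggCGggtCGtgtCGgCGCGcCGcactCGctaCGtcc
Ddx1: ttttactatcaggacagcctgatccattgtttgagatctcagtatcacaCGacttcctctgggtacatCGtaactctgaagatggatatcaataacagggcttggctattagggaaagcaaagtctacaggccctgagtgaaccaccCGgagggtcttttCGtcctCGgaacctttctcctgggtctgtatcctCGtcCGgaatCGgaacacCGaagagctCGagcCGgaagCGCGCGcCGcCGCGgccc
Ddx58: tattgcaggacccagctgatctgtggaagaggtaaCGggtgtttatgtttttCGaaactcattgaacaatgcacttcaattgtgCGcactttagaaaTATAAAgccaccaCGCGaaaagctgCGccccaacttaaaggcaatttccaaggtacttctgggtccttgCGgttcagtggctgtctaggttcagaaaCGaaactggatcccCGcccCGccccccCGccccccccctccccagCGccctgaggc
These windows hold 25 CG dinucleotides in Ddx21, 24 in Ddx27, 17 in Ddx1 and 12 in Ddx58. Of the 4, Ddx58 alone holds TATAAA, which was searched on both strands. In Ddx58 these letters lie nearer the far end of the window than the transcript start, and their use as a TATA box was not tested. RefSeq windows were matched for 45 of the 51 members (56 windows), with a median of 18 CG dinucleotides, against 6 over all 32851 windows. TATAAA was present in 4 member windows (7.14%) and in 12.4% of all windows. The 41 windows of members that rose in this transition had a median of 18 CG dinucleotides the 8 windows of members that fell had 12.5, and the 7 windows of members that were not called had 21. These letters describe the sequence and no binding was measured.

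Calls rest on limma, with p adjusted by Benjamini-Hochberg over all 14642 genes tested, and needed an adjusted p below 0.05 together with a log2 change of 1 or more. From GV to MII oocytes 16 members were called (3 higher, 13 lower), where 34.5% of all genes tested were called (9.11% higher, 25.3% lower). From MII oocytes to zygotes 4 were called (2 higher, 2 lower), beside 10.3% of all genes (5.79% higher, 4.48% lower). From zygotes to 2-cell embryos 17 were called (10 higher, 7 lower), beside 33.9% (25.2% higher, 8.71% lower). From 2-cell to 4-cell embryos 42 were called (36 higher, 6 lower), beside 64.8% (31.8% higher, 32.9% lower). The median change of the members in this transition was 1.98, and that of all genes tested 0.02. From 4-cell to 8-cell embryos limma called 0 members, although 18 had an unadjusted p under 0.05, and edgeR also called 0, beside 2.6% of all genes in limma (0.451% higher, 2.14% lower). From 8-cell embryos to morulae 6 were called (4 higher, 2 lower), beside 11.9% (8.18% higher, 3.7% lower). From morulae to blastocysts 5 were called (3 higher, 2 lower), beside 26.8% (18.8% higher, 7.97% lower). Consecutive comparisons share a stage, so a level that is high or low at that stage enters both.

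The split of directions changed with scaling in 3 comparisons. Quantile normalization moved the median of all genes from -0.11 to 0.16 for GV to MII and turned the split of members to 13 higher and 8 lower, and edgeR gave 12 higher and 14 lower. From zygotes to 2-cell embryos the median of all genes moved from 0.37 to -0.08 and the split to 8 higher and 11 lower, and edgeR gave 11 and 12. From morulae to blastocysts quantile normalization, which moved the median of all genes from 0.16 to -0.01, gave 2 higher and 5 lower, and edgeR 2 and 6. For 2-cell to 4-cell embryos quantile normalization moved the median of all genes from 0.02 to 0.22, and quantile normalization and edgeR both gave 36 higher and 6 lower. All 42 calls of this transition were kept under each alternative run. No called member changed sign under any alternative in the transcriptome comparisons. Ddx39a was not found by symbol in GENCODE M21, so its overlaps are unknown. Exons of 12 members overlap another gene there, and counting was not stated to use strand, so reads in the overlap cannot be told apart. These are Ddx17, Ddx28, Ddx41, Ddx49, Ddx54, Ddx59, Dhx32, Dhx57 and Dhx58 with a gene on the other strand, Ddx5 and Ddx39b with genes on the same strand (Mir3064 and Mir8094 among them), and Dhx30 with a gene on each strand.

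**Figure D1:**
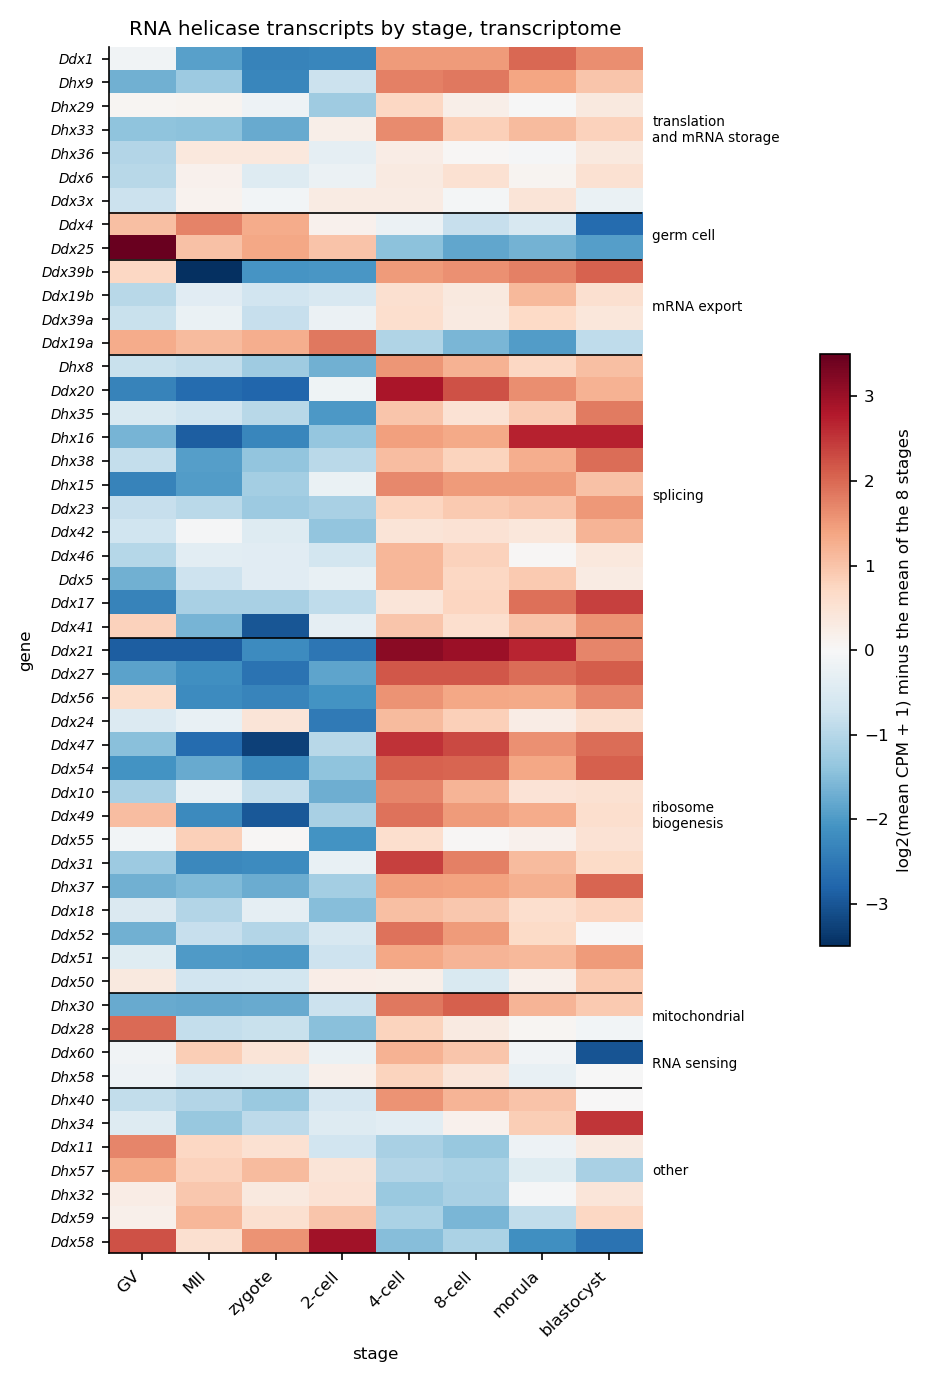
Level of each of the 51 members (rows, grouped by role) at the 8 stages (columns) in the transcriptome libraries, as log2(mean CPM + 1) minus the gene's mean over the stages, with red above and blue below that mean. Of 51 members, 40 had their highest mean at the 4-cell stage or later, among them 14 of the 15 ribosome biogenesis and 12 of the 12 splicing helicases. The share over all genes was not computed, so these counts are not shown to be particular to the family.

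Helicases of ribosome biogenesis, which unwind ribosomal RNA precursors and small nucleolar RNAs in the nucleolus, rose from the 2-cell to the 4-cell stage in 14 of 15 cases, with a median change of 3.03. Of all genes tested, 31.8% were called higher in this comparison, where the median change over all of them was 0.02. Ddx21, a nucleolar helicase that couples ribosomal RNA transcription and processing, read 12.4, 10.0, 14.9 and 7.59 CPM in the 4 two-cell pools and 714, 596, 567 and 645 CPM in the 4-cell pools. No 2-cell value came near a 4-cell value, and the change was 5.72 (SE 0.16, limma adjusted p 8.2e-27). Ddx27, which takes part in forming the large subunit ribosomal RNA, read 9.18, 9.65, 13.5 and 11.1 CPM before and 205, 183, 210.4 and 172 CPM after (change 4.04, SE 0.16, adjusted p 1.6e-22). Ddx56, a large subunit assembly factor, went from 9.86 ± 2.32 to 136.5 ± 20.6 CPM (SD, n = 4; change 3.68). Ddx24 went from 26.8 ± 6.34 to 337 ± 18.8 CPM (change 3.63). The exception was Ddx50, a paralog of Ddx21, at 30.6 ± 6.33 and 30.4 ± 4.83 CPM (change -0.00, SE 0.17).

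Among these nucleolar genes the level in the oocyte was not uniform. Ddx21 stayed between 6.57 and 16.4 CPM in all 16 libraries from GV to 2-cell. Ddx49 and Ddx56 instead were present in GV oocytes, at 28.1 ± 3.3 and 70.5 ± 9.7 CPM, and fell by 3.49 and 2.86 on the log2 scale to MII (adjusted p 6.4e-14 and 6.5e-17). An exon of Ddx49 overlaps Homer3 on the other strand. Ddx24, a factor of large subunit maturation, fell before it rose. It read 201.5, 206, 225 and 209.5 CPM in zygotes and 23.8, 35.0, 20.3 and 28.1 CPM in 2-cell embryos, a fall of 2.95 (SE 0.13, adjusted p 5.6e-20) with no overlap. Ddx55 fell by 2.22 and Ddx18 by 1.19 between the same stages, while Ddx47 (2.34), Ddx31 (1.91), Ddx49 (1.91) and Ddx51 (1.27, not called after quantile normalization) rose. From the 4-cell stage on, no ribosome biogenesis member was called in any of the 3 later comparisons. Of all genes tested, 2.6%, 11.9% and 26.8% were called in these. Mean levels still moved over several stages, in both directions and in steps that were not called. Ddx21 went from 630.5 CPM in 4-cell embryos to 232 CPM in blastocysts, and Ddx56 from 136.5 to 149 CPM. These stages were not tested against each other.

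**Figure D2:**
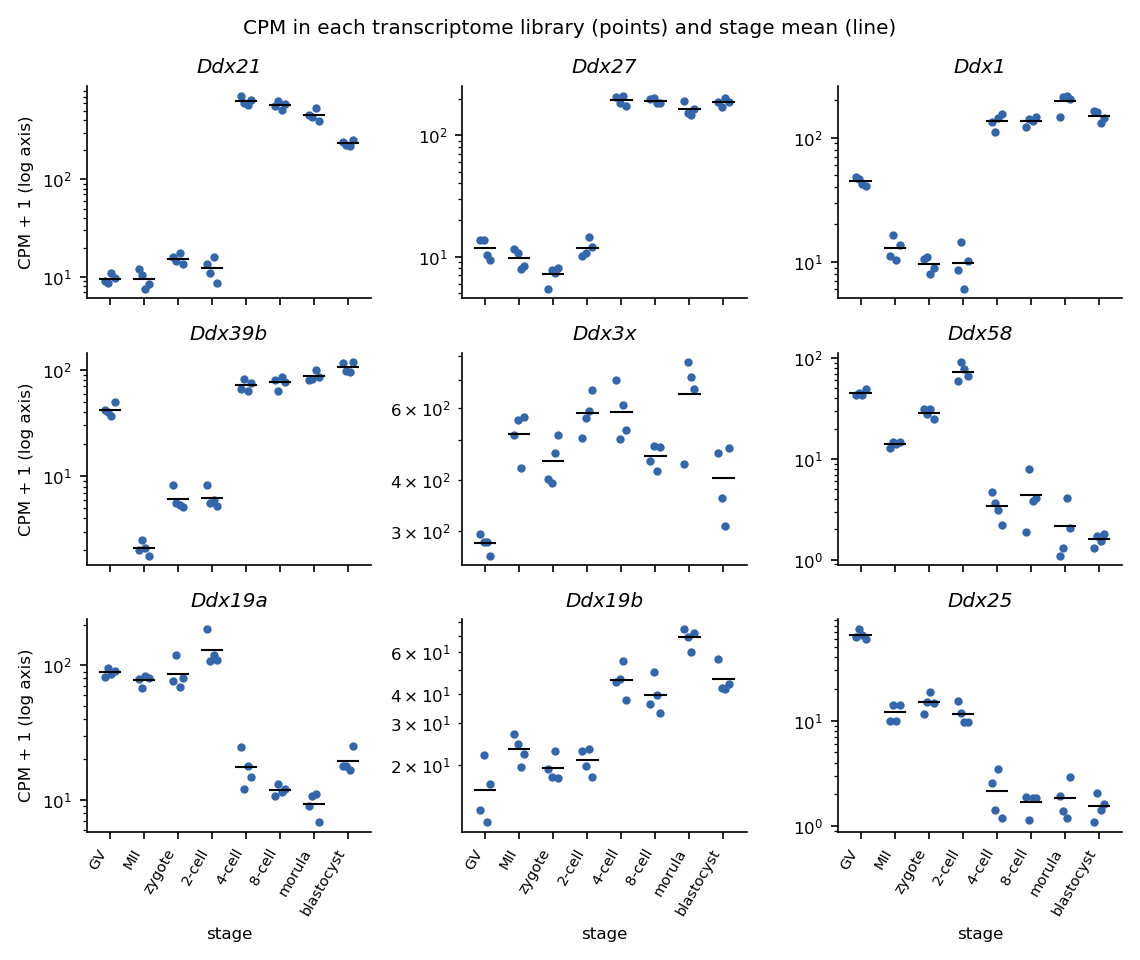
CPM + 1 in each of the 4 transcriptome libraries (points) and the stage mean (line) for 9 members at the 8 stages, on logarithmic axes. The 4-cell libraries of Ddx21 (567 to 714 CPM), Ddx27 and Ddx1 lie above all 2-cell libraries, and those of Ddx58, Ddx19a and Ddx25 lie below.

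All 12 splicing helicases rose from 2-cell to 4-cell embryos, by 1.34 to 3.25, where 31.8% of all genes tested were called higher. Dhx8, which releases spliced messenger RNA from the spliceosome, read 23.7, 13.5, 14.3 and 17.2 CPM before and 188, 162, 160 and 165 CPM after (change 3.25, SE 0.16, adjusted p 1.1e-19). Dhx15, which takes the spliceosome apart, went from 40.2 ± 5.61 to 155.7 ± 24.4 CPM (SD, n = 4; change 1.92). Ddx20, part of the SMN complex that assembles spliceosomal small nuclear ribonucleoproteins, was already called from zygotes to 2-cell embryos. It read 2.96, 3.08, 3.27 and 2.94 CPM in zygotes, 27.7, 21.8, 29.6 and 18.3 CPM in 2-cell embryos (change 2.62, SE 0.18, adjusted p 7.1e-15) and 218, 181, 201 and 212 CPM in 4-cell embryos (change 3.03, SE 0.18). The groups of these 3 stages do not overlap, and the mean then stood at 129 CPM in 8-cell embryos, 85.2 in morulae and 64.5 in blastocysts.

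Ddx41, which acts in splicing and in DNA sensing, had the lowest mean of the 8 stages in zygotes. It read 48.4 ± 5.31 CPM in GV oocytes, 8.15 ± 2.82 in MII oocytes, 2.56 ± 1.03 in zygotes and 21.6 ± 10.9 in 2-cell embryos (SD, n = 4). These steps were called as falls of 2.48 and 1.35 and a rise of 2.57 (adjusted p 1.7e-10, 8.8e-05 and 8.3e-11). Ddx17 and Dhx16 rose again after the 8-cell stage. Dhx16, a spliceosome remodelling helicase, read 61.6, 49.5, 75.0 and 46.9 CPM in 8-cell embryos and 190.9, 158, 144 and 107 CPM in morulae (change 1.34, SE 0.20, adjusted p 5.1e-06), with no overlap, and the call was kept under each alternative run. Ddx17, which also coregulates transcription and has the close paralog Ddx5, rose by 1.12 (SE 0.23), but by 0.98 and under the threshold of 1 without morula library A.

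The 4 export helicases did not move together. Ddx39b, which recruits export factors to spliced messenger RNA, read 40.6, 39.3, 35.9 and 49.1 CPM in GV oocytes and 1.01, 1.51, 1.13 and 0.792 CPM in MII oocytes. The groups are far apart, and the change of -4.33 (SE 0.17, adjusted p 7.2e-22) was the largest fall among the members in that comparison. It rose by 1.52 (adjusted p 1.3e-08) to 5.12 ± 1.5 CPM in zygotes, read 5.24 ± 1.32 CPM in 2-cell embryos, and rose by 3.54 to 70.7 ± 8.79 CPM in 4-cell embryos (SD, n = 4). Its paralog Ddx39a was not called in any transcriptome comparison, with stage means from 145.5 to 413 CPM. The proteins encoded by these paralogs are nearly the same, and reads they share could have been assigned to either, so the split between them is uncertain.

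Ddx19a and Ddx19b, a pair of paralogs that release export factors at the nuclear pore, were called in opposite directions from 2-cell to 4-cell. Ddx19a read 185, 107, 119 and 109 CPM and then 23.9, 11.1, 16.9 and 13.7 CPM, a fall of 2.92 (SE 0.20, adjusted p 1.7e-15). Ddx19b read 22.0, 18.9, 22.4 and 16.9 CPM and then 43.5, 44.8, 53.6 and 36.6 CPM, a rise of 1.11 (SE 0.18, adjusted p 7.3e-07). For neither gene do the 4 libraries of the stages overlap. These copies are near-identical, and reads could have been assigned to either, so each level is uncertain. From morulae to blastocysts Ddx19a rose by 1.06, but by 0.93 without blastocyst library D, by 0.91 without morula library D, by 0.63 after quantile normalization and by 0.86 in edgeR, all under the threshold of 1.

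Of the germ cell helicases listed beforehand, Ddx4 and Ddx25 were in the table and Ddx43 was not. Ddx25, known for its role in the male germ line, read 60.9, 73.0, 64.5 and 59.3 CPM in GV oocytes and 8.89, 13.2, 9.01 and 13.2 CPM in MII oocytes (change -2.46, SE 0.29, adjusted p 3.3e-09). It stood at 10.7 ± 2.63 CPM in 2-cell embryos and 1.17 ± 1.08 CPM in 4-cell embryos (SD, n = 4), a fall of 2.54 (adjusted p 5.7e-10). Ddx4 (Vasa), a marker of the germ line that acts with small RNAs against transposons, had another course. Its means were 78.3, 126, 93.3, 41.4, 31.9, 20.8, 25.1 and 4.86 CPM from GV oocyte to blastocyst. The called steps were zygote to 2-cell (-1.18, SE 0.26, adjusted p 2.6e-04) and morula to blastocyst (-2.10, SE 0.26, adjusted p 3.6e-08). The 4 blastocyst libraries (4.67, 4.54, 3.59 and 6.65 CPM) lie below the lowest morula library (14.7 CPM).

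Among the helicases of translation and mRNA storage, 4 of 7 rose from 2-cell to 4-cell and 3 were not called (Ddx3x, Ddx6, Dhx36). Of all genes tested, 31.8% were called higher there. Ddx1, which acts in RNA transport granules and transfer RNA ligation, read 7.63, 13.6, 5.08 and 9.13 CPM and then 132, 111, 144 and 154 CPM (change 3.85, SE 0.19, adjusted p 8.3e-20). In GV oocytes it had been at 43.5 ± 3.54 CPM (SD, n = 4), and it fell by 1.81 to MII. Dhx9, a nuclear helicase that also aids translation of structured transcripts, rose by 1.52 from zygotes to 2-cell embryos and by 2.53 to 4-cell embryos, where it read 147.5 ± 27.6 CPM. Its fall of 1.02 from MII oocytes to zygotes ended just under 1 after quantile normalization (-0.95) or without MII library B (-0.95), MII library D (-0.99) or zygote library B (-0.91). Dhx29, which helps ribosomes scan structured leaders, fell by 1.08 from zygotes to 2-cell embryos and rose by 1.98 to 4-cell embryos. That fall was 0.96 on the log2 scale without 2-cell library F and 0.99 without zygote library B.

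Dhx36 resolves guanine quadruplexes, and Ddx6 represses and stores maternal transcripts in RNA granules. They were 2 of the 3 members that the main fit called higher from GV to MII. More members were called higher after quantile normalization and in edgeR. Dhx36 read 27.8, 29.7, 35.0 and 26.5 CPM and then 75.4, 94.2, 58.8 and 88.0 CPM (change 1.37, SE 0.18, adjusted p 6.4e-08). Ddx6 read 12.8, 19.9, 20.7 and 13.7 CPM and then 38.2, 41.7, 29.4 and 40.4 CPM (change 1.13, SE 0.19, adjusted p 3.6e-06). All MII libraries of Dhx36 and Ddx6 lie above all GV libraries, and both calls were kept under each alternative run. Ddx17 was the third, with a change of 1.17 (SE 0.23). Ddx3x, an X-linked helicase of translation initiation, was not called in any transcriptome comparison. Its means ran from 279.6 ± 13.9 CPM in GV oocytes to 645 ± 146 CPM in morulae.

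The 2 mitochondrial members, which act in mitochondrial ribosome assembly and gene expression, rose from 2-cell to 4-cell, Dhx30 by 2.59 and Ddx28 by 2.26. Ddx28 had fallen from 65.5 ± 7.46 to 8.52 ± 3.27 CPM between GV and MII oocytes (change -2.87, adjusted p 3.9e-13), and an exon of it overlaps Dus2 on the other strand. Of the RNA sensing members, Ddx60, an interferon-induced antiviral helicase, read 7.49, 13.2, 8.46 and 9.97 CPM in morulae and 0.343, 0.224, 0.334 and 0.854 CPM in blastocysts (change -2.90, SE 0.24, adjusted p 3.7e-12). It rose by 1.54 from 2-cell to 4-cell. Dhx58 stayed at 0 to 3.05 CPM in all 32 libraries and was not called.

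Ddx58, the gene of the viral RNA sensor RIG-I, was grouped here under other roles and not with the RNA sensing members. It had the opposite course to most of the family at the 2-cell to 4-cell step. It read 57.9, 89.4, 77.4 and 64.8 CPM in 2-cell embryos and 3.66, 2.67, 2.14 and 1.22 CPM in 4-cell embryos (change -4.45, SE 0.31, adjusted p 2.5e-15). Before that it had fallen by 1.67 from GV to MII and risen by 1.35 from zygotes to 2-cell embryos. Its rise of 1.01 from MII oocytes to zygotes was lost under 6 of 14 alternatives: at 1.05 (adjusted p 0.085) with a pseudocount of 0.25, 0.93 after quantile normalization, 1.12 (adjusted p 0.063) in edgeR, and 0.97 without MII library A, zygote library A or zygote library C. The other members that fell from 2-cell to 4-cell beside Ddx58, Ddx19a and Ddx25 were Ddx59 (-2.01), Dhx32 (-1.92) and Dhx57 (-1.54).

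Ddx59 and Dhx34, which acts in nonsense-mediated decay, rose from morulae to blastocysts. Ddx59 read 4.15, 5.11, 3.09 and 7.07 CPM in morulae and 16.4, 15.6, 18.4 and 15.7 CPM in blastocysts (change 1.62, SE 0.27, adjusted p 6.9e-06). Dhx34 read 5.16 ± 1.15 and 18.1 ± 4.4 CPM (SD, n = 4; change 1.63, SE 0.31). From 8-cell embryos to morulae Ddx11, a DNA helicase of chromatid cohesion, rose by 1.27, and by 0.97 without 8-cell library D. Dhx32 rose by 1.06 in that comparison and is named here after its values were seen. It was not called after quantile normalization or without morula library A or 8-cell library C. Ddx60 fell by 1.09, but by 0.98 without morula library A or 8-cell library B. Ddx58 fell by 1.05, but by 0.80, 0.88 and 0.71 without morula library A, morula library B and 8-cell library B, and had an adjusted p of 0.090 where the fit held 8-cell embryos and morulae alone. Without morula library A, 2 members were called in place of 6.

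The gradients ask where in the sucrose gradient each transcript lies. Transcripts with more ribosomes sediment further. Fractions carry a number and no name in the labels, so taking 6 to 10 as the heavy and 1 to 5 as the light side is a convention. Each fraction is scaled to its own total, and no RNA amount per fraction was used. The heavy minus light difference was called for 0 members in GV oocytes by limma (3 at an unadjusted p under 0.05, 0 in edgeR), where 0.0725% of the 15172 genes tested were called (0.0461% on the heavy and 0.0264% on the light side). MII oocytes had 1 call, on the heavy side, beside 3.23% of all genes (1.71% heavy, 1.52% light). Zygotes also had 1, on the heavy side, beside 3.01% (2.14% heavy, 0.87% light). In 2-cell embryos 13 members were called (7 heavy, 6 light), beside 18.2% (6.43% heavy, 11.8% light). In 4-cell embryos 14 were called (4 heavy, 10 light), beside 16.3% (3.4% heavy, 12.9% light). Later stages had fewer calls in this limma fit, whose estimate of the spread is shared by all stages. There were 3 in 8-cell embryos (2 heavy, 1 light), beside 9.05% (2.43% heavy, 6.62% light), and 2 in morulae (1 heavy, 1 light), beside 5.81% (1.64% heavy, 4.17% light). Blastocysts had 1, on the heavy side, beside 2.74% (0.633% heavy, 2.11% light). With only a stage's own means in the fit, blastocysts had the most calls, so the order of the stages depends on the fit. With the gradient as a replicate block, which pairs the 2 sides of a gradient, the counts in zygotes and blastocysts became 2 each. Of these 35 calls, 4 were kept under each alternative run: Ddx3x in MII oocytes and zygotes, and Ddx39a in morulae and blastocysts.

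**Figure D3:**
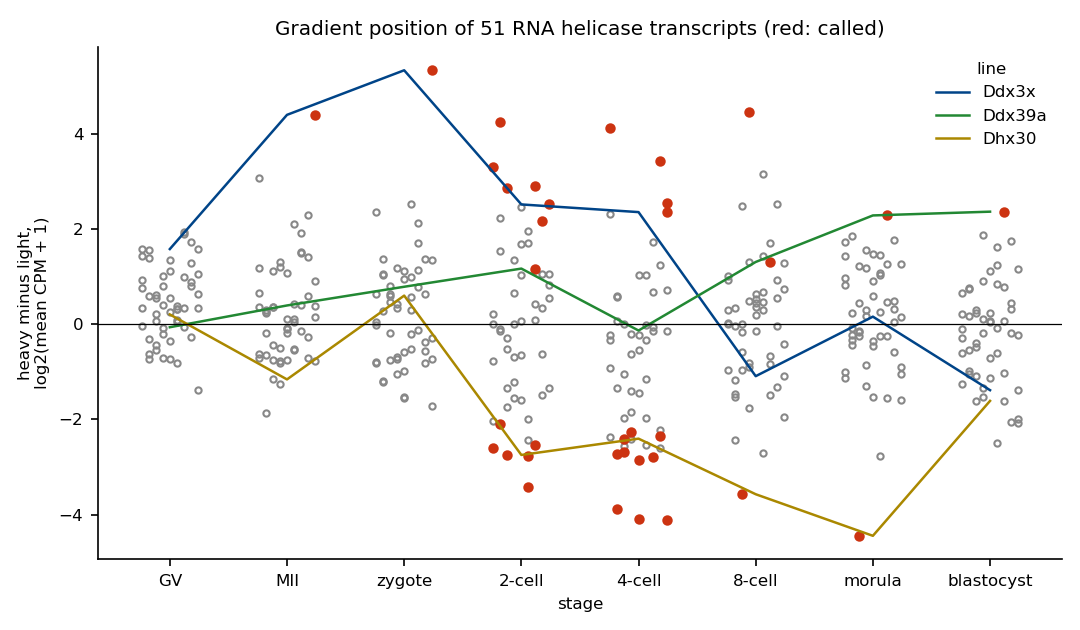
Heavy minus light difference of log2(mean CPM + 1) for the 51 members (points, spread sideways for legibility) at each stage, with called members filled in red and lines through the values of Ddx3x, Ddx39a and Dhx30. Ddx3x stands highest in MII oocytes (4.39) and zygotes (5.33), Ddx39a reaches 2.28 and 2.36 in morulae and blastocysts, and Dhx30 stands at -4.44 in morulae.

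Ddx3x transcripts lay deep in the gradient in MII oocytes and zygotes. In MII oocytes the heavy side read 70.5, 209.8 and 158 CPM in gradients A to C and the light side 5.79, 3.84 and 6.88 CPM. In zygotes the heavy side read 256, 172 and 278 CPM and the light side 7.88, 1.7 and 6.97 CPM. No heavy value overlaps a light value, and the differences were 4.39 (SE 0.79, adjusted p 4.2e-04) and 5.33 (SE 0.79, adjusted p 3.4e-05). In zygotes 97.9% ± 1.04 (SD, n = 3) of the summed fraction CPM of Ddx3x lay in fractions 6 to 10. In GV oocytes that share was 74.3% ± 10.1 and the difference 1.58, which was not called (adjusted p 0.93). In blastocysts the share was 27.2% ± 4.41 and the light side, at 48.8, 51.6 and 83.2 CPM, lay above the heavy side at 14.7, 18.7 and 39.0 CPM, without a call (difference -1.39, adjusted p 0.64).

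In 2-cell and 4-cell embryos Ddx3x was called on the heavy side too (2.51 and 2.35), with some loss of calls. In the 2-cell embryo the difference was 2.69 (adjusted p 0.061) without gradient A and 1.82 (adjusted p 0.22) without gradient C. In the 4-cell embryo it was 1.87 (adjusted p 0.19) without gradient A, 2.45 (adjusted p 0.081) without gradient C and 1.98 (adjusted p 0.16) in edgeR. With only the 6 means of a stage in the fit, adjusted p was 0.071 and 0.25. With a light side of fractions 2 to 5, which leaves out the shallow fraction 1, the differences were 4.32 and 2.81, both called. The transcriptome level of Ddx3x between MII and blastocyst stayed within 403 to 645 CPM as stage means.

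Ddx39a transcripts lay on the heavy side in the late stages. In morulae its heavy side read 1177, 2012 and 1377 CPM and its light side 178, 517 and 305 CPM (difference 2.28, SE 0.39, adjusted p 7.1e-05). In blastocysts it read 2148, 2999 and 2963 CPM against 476, 632 and 466 CPM (difference 2.36, SE 0.39, adjusted p 1.2e-04). The sides do not overlap in either stage. In blastocyst gradients fraction 9 of Ddx39a held 3326, 4864 and 7022 CPM, and fraction 1 held 449, 310 and 264 CPM. In GV oocytes the sides did overlap, at 267, 302 and 210 CPM on the heavy and 241, 334 and 241 CPM on the light side. The share of the summed fraction CPM in fractions 6 to 10 was 48.9% ± 3.17 (SD, n = 3) in GV oocytes, 82.8% ± 3.74 in morulae and 83.6% ± 2.45 in blastocysts. The blastocyst transcriptomes read 332 ± 28.7 CPM (SD, n = 4) for the same gene.

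Ddx39a was also called on the heavy side in 2-cell (1.17, adjusted p 0.033) and 8-cell embryos (1.30, adjusted p 0.027). The 2-cell difference was 0.92 without gradient B, 1.11 (adjusted p 0.10) without gradient C and 0.88 without fraction 1. The 8-cell difference was 1.17 to 1.47 without any 1 of the gradients A, B and C, with adjusted p from 0.052 to 0.17, and the call was also lost under 5 further alternatives, 1.09 (adjusted p 0.074) after quantile normalization among them.

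**Figure D4:**
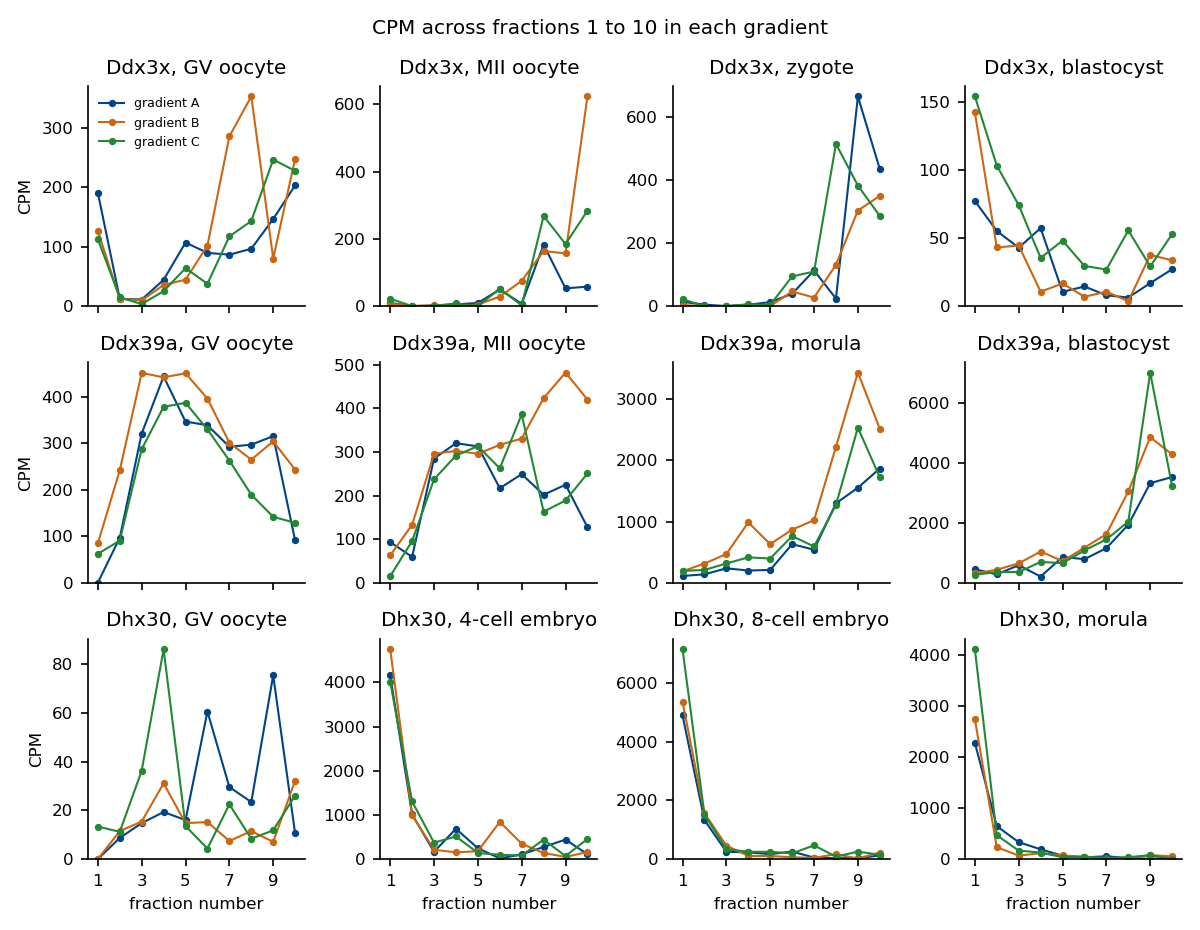
CPM in each of fractions 1 to 10 (horizontal axis) for Ddx3x, Ddx39a and Dhx30 in 4 stages each, with 1 line per gradient (A, B and C) and a linear CPM axis per panel. Ddx3x has its highest values among fractions 8 to 10 in MII oocytes and zygotes, Ddx39a in fractions 9 and 10 in morulae and blastocysts, and Dhx30 stands in fraction 1 in 4-cell embryos, 8-cell embryos and morulae.

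Dhx30 was the member with the lowest heavy minus light values from the 8-cell stage to the morula. In morulae the heavy side read 26.8, 39.6 and 37.6 CPM and the light side 704, 647 and 984 CPM (difference -4.44, SE 0.57, adjusted p 4.5e-07). In 8-cell embryos the sides read 98.4, 103 and 229 CPM and 1376, 1520 and 1902 CPM (difference -3.57, adjusted p 1.9e-05), and in 4-cell embryos 189.6, 307 and 229 CPM and 1253, 1258 and 1269 CPM (difference -2.40, adjusted p 0.0025). The sides do not overlap in any of the 3 stages. Most of this signal stood in fraction 1, which read 4159, 4752 and 4019 CPM in 4-cell embryos, 4901, 5369 and 7161 CPM in 8-cell embryos and 2284, 2746 and 4120 CPM in morulae. Fraction 1 held 57.4% ± 3.55, 66.6% ± 0.546 and 74.4% ± 10.3 of the summed fraction CPM of Dhx30 in these stages (SD, n = 3). The share was 68.0% ± 9.69 in 2-cell embryos, 53.1% ± 2.4 in blastocysts, 18.7% ± 13.4 in MII oocytes and 4.94% ± 1.04 in zygotes. In GV oocytes gradient C had 5.71%, and gradients A and B had 0 reads of Dhx30 in fraction 1 libraries of 0.0102 and 0.0231 M reads, too shallow for a share. A high fraction 1 share was not particular to Dhx30. For Dhx9 the 4-cell, 8-cell and morula shares were 46.7% ± 20.2, 53.4% ± 18.5 and 53.8% ± 10.3 (SD, n = 3). Those of Ddx39a were 1.35% ± 1.85, 1.23% ± 1.22 and 1.80% ± 0.44. Ddx24 had a 2-cell share of 59.5% ± 28.0 and a 4-cell share of 9.31% ± 2.19.

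Without fraction 1 on the light side, the Dhx30 difference was -2.49 (adjusted p 0.014) in morulae and -2.04 (adjusted p 0.042) in 8-cell embryos, and it was no longer called in 4-cell embryos. In edgeR, which weighs fractions by their reads, it was -2.29 (adjusted p 0.11) in morulae and -1.15 (adjusted p 0.40) in 8-cell embryos. In 2-cell embryos the difference was -2.75 (adjusted p 5.3e-04), and -0.74 without fraction 1. An exon of Dhx30 overlaps the exons of Gm27855 on the same strand and of Smarcc1 on the other in GENCODE M21, and reads of these genes cannot be told apart here. The lowest number of Dhx30 reads in a fraction 1 library was 742 at the 4-cell stage, 1541 at the 8-cell stage and 1916 in morulae. In the transcriptomes, Dhx30 stood at 128.7 ± 17.1, 152.9 ± 23.1 and 80.6 ± 8.55 CPM in these stages (SD, n = 4).

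The 2-cell and 4-cell embryos held 27 of the 35 gradient calls, and their gradients were also the least alike. Among fractions 2 to 10, a member that reached 100 CPM in 2 gradients of the 2-cell stage had 0 reads in the remaining gradient in 5 of 65 cases (7.69%). The corresponding counts were 5 of 82 (6.1%) in 4-cell and 2 of 116 (1.72%) in 8-cell embryos and 0 at the other 5 stages. With only the 6 means of the stage in the fit, 0 members were called in 2-cell and 0 in 4-cell embryos, while 15 were called in blastocysts. The part of this dropout in the calls was not tested.

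In 2-cell embryos the largest heavy side differences were those of Dhx40 (4.25), Ddx52 (3.31) and Ddx5 (2.90), and the largest light side differences those of Ddx59 (-3.42), Ddx49 (-2.78) and Dhx30. Ddx5, a splicing and transcription cofactor, read 173, 85.8 and 108 CPM on the heavy side and 11.3, 18.5 and 15.7 CPM on the light side, with no overlap (SE 0.64, adjusted p 0.0012). Dhx40 read 93.5, 31.6 and 13.1 CPM against 0, 1.2 and 1.87 CPM. These calls were lost with only the stage's own means in the fit (adjusted p 0.055 for Ddx5 and 0.085 for Dhx40) and kept under the other alternatives. Ddx52 was at 0 on the heavy side of gradient A, and its difference was 2.59 without gradient B and 2.09 without gradient C, with no call in either case. Ddx59 was at 0 on the light side of gradient B, and its difference was -2.88 without gradient A and -2.21 without gradient C, uncalled. The difference of Ddx49 was -1.65 without gradient A (adjusted p 0.24).

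In 4-cell embryos the called heavy side members were Dhx38 (4.12), Ddx60 (3.42), Dhx37 (2.55) and Ddx3x. Dhx38 read 0.174, 88.1 and 98.9 CPM on the heavy and 0.0585, 0.0409 and 0.821 CPM on the light side, so gradient A differed from the other two. Its difference was 2.96 without gradient B and 3.28 without gradient C, uncalled. Ddx60 rested on gradient A, with 533, 5.17 and 0 CPM on the heavy side, and its difference was 0.60 (adjusted p 0.80) without that gradient. Dhx37 was uncalled without any 1 of the gradients A, B and C (2.34 to 2.71, adjusted p from 0.085 to 0.13). On the light side, Dhx15 (-4.12), Ddx28 (-4.09) and Dhx29 (-3.87) had the largest differences. Dhx15 read 0.278, 1.19 and 32.6 CPM on the heavy and 92.4, 50.5 and 101 CPM on the light side. It was not called without gradient A (-3.08, adjusted p 0.063), Ddx28 not without gradient B (-2.46, adjusted p 0.24), and Dhx29 not without gradient B (-2.94, adjusted p 0.062).

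Whether the heavy minus light difference itself differed between consecutive stages was tested as a shift. From GV to MII and from MII to zygote limma called 0 members, with 1 at an unadjusted p under 0.05 in each and 0 in edgeR, beside 0.185% and 0.0198% of all genes. From zygotes to 2-cell embryos 3 members were called, all toward the light side (beside 4.65% of all genes, 1.73% heavy and 2.91% light), namely Ddx59 (-5.95), Ddx6 (-4.26) and Dhx30 (-3.35). Without zygote gradient A none of the 3 was called (adjusted p 0.052, 0.23 and 0.079). The Ddx6 shift was lost under 11 of 14 alternatives, among them edgeR (adjusted p 0.28), quantile normalization (adjusted p 0.098) and leaving out zygote gradient B (adjusted p 0.059) or C (0.15) or 2-cell gradient B (0.087) or C (0.11). The Ddx59 shift was also lost without 2-cell gradient A (adjusted p 0.051) or C (0.068). With a light side of fractions 2 to 5 the Ddx6 shift was -1.88 and the Dhx30 shift -1.27, neither called. With the gradient as a replicate block there were 5, among them Ddx3x, at -2.82 (adjusted p 0.032). From 2-cell to 4-cell 9 were called (2 toward the heavy and 7 toward the light side, beside 11.7%, of which 4.52% heavy and 7.22% light), with Dhx29 (-6.11), Ddx28 (-5.76) and Dhx15 (-5.18) the largest toward the light side, and Dhx16 (4.36) and Dhx37 (3.90) toward the heavy side. From 4-cell to 8-cell embryos Dhx32 was called, at 5.87 (beside 2.47% of all genes, 1.98% heavy and 0.488% light), and with the replicate block 5 members were, among them Ddx3x at -3.44 (adjusted p 0.017).

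Dhx32 in 8-cell embryos read 16.5, 64.8 and 60.2 CPM on the heavy and 0.0426, 0 and 5.38 CPM on the light side (difference 4.46, SE 0.76, adjusted p 5.7e-05), and an exon of it overlaps Bccip on the other strand. That call was lost in edgeR (3.52, adjusted p 0.087) and with only the stage's own means in the fit (adjusted p 0.068). In 4-cell embryos it read 0.0536 to 0.293 CPM on the heavy side. For the last 2 shifts limma called 0 members, with 3 and 2 at an unadjusted p under 0.05 and 0 in edgeR, beside 0.534% and 0.0198% of all genes. None of the 13 shift calls was kept under every alternative, and the late position of Ddx39a was not itself called as a shift between neighbouring stages.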

How the data were processed

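Transcriptomes (32 libraries) and gradient fractions (240 libraries) were analysed from 1 table that the authors deposited in CPM per gene symbol. Per the submitters' processing notes, Trim Galore 0.6.7, FastQC, HISAT2 2.2.1, featureCounts 2.0.1, edgeR and build GRCm39 were used, with no role or order given. As deposited, with repeated symbols in the table, 38 columns summed above what CPM allows, and the 9 with the highest sums were recorded as a signal. These deposited signal values were used like the CPM of the others. Of 76 groups of repeated symbols 1 each was kept (15771 symbols), and 0 members were repeated. Low values gave whole reads (100% of values within 0.05 reads) in 271 of 272 libraries, and these recovered counts, computed from the deposited CPM, entered edgeR's quasi-likelihood test (version 4.0.16, TMM) as an alternative. Amplified reads carry no molecular identifiers, so depth covers counting error only. The 2-cell transcriptome columns carry letters E to H and were used as a group.

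The main test was limma (3.58.1, R 4.3.3; lmFit and eBayes with trend) on log2(CPM + 1), with 1 fit over all stages for the transcriptomes and 1 over the 48 means of fractions 6 to 10 and 1 to 5. Genes entered at a CPM of at least 1 in 4 transcriptomes or 3 gradient means. Calls needed a Benjamini-Hochberg adjusted p under 0.05 over all genes and a change of at least 1. On simulated data, limma was fitted to a pair of transcriptome stages or to the gradients of a single stage. It recovered most changed genes in the transcriptomes and MII gradients and few in the 4-cell gradients. The fits over all stages, which gave the calls, were not simulated. Named members were the 3 largest called changes in each direction per comparison plus a list of 14 genes, of which 13 were in the table. Members and lists were chosen with earlier results of these data known.

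The letters of the labels pair heavy and light means because both come from 1 gradient. Deviations of the 2 sides correlated across genes with r from 0.0078 to 0.253 (median 0.097, 24 gradients). Transcriptome letters mark no shared animal or day. Alternatives were a pseudocount of 0.25, no filter, quantile normalization, edgeR, fits of only the groups compared, a replicate block, leaving out each replicate, and fractions 7 to 10 against 2 to 5. A light side of fractions 2 to 5 was chosen after seeing the data. Exon overlaps were looked up by symbol in GENCODE M21 (50 of 51 members found, all but Ddx39a), and promoter sequences in RefSeq on GRCm38.p6. No coordinates on the authors' build were used.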

Additional observations from a re-analysis of the deposited data

Results flagged for a closer look

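The search for a pool far from the other 3 of its stage covered the transcriptome values of 13 members at 8 stages, 104 groups, and found 10. Chance gives about 1 in 20 groups. The criterion was Dixon's for 4 values, the gap to the nearest pool as a share of the stage's whole range. High single pools were Ddx4 at 108.1 CPM in zygotes, Ddx39b at 7.34 CPM in zygotes, Ddx19a at 185.2 CPM in 2-cell embryos and 24.1 CPM in blastocysts, Dhx9 at 208 CPM in 8-cell embryos, Ddx19b at 54.9 CPM in blastocysts, and Dhx29 at 88.0 CPM in 8-cell embryos and 88.8 CPM in blastocysts. Low single pools were Ddx25 at 0.135 CPM in 8-cell embryos and Ddx39a at 350.2 CPM in 4-cell embryos.

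In 13 cases the heavy minus light difference itself differed between neighbouring stages in limma's test of the shift. From zygotes to 2-cell embryos these were Ddx59 (-5.95), Ddx6 (-4.26) and Dhx30 (-3.35). From 2-cell to 4-cell embryos they were Dhx29 (-6.11), Ddx28 (-5.76), Dhx15 (-5.18), Ddx42 (-4.84), Ddx20 (-4.50), Dhx40 (-3.67), Ddx46 (-3.60), Dhx16 (4.36) and Dhx37 (3.90). From 4-cell to 8-cell embryos it was Dhx32 (5.87).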

How the results depend on the processing

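Of the 90 transcriptome calls 73 were kept under every alternative, of the 35 heavy against light calls 4, and of the 13 shift calls 0, and no call changed sign. Counts of members called that moved by over 1.5 times were as follows. A pseudocount of 0.25 gave 5 on the heavy against light test in 8-cell embryos and 2 for the 4-cell to 8-cell shift. Quantile normalization gave 2 for MII oocyte to zygote transcriptomes, and 2 in zygote and 9 in 4-cell gradients. edgeR gave 26 for GV to MII and 8 for morula to blastocyst transcriptomes, 7 in 4-cell and 1 in morula gradients, and 5 for the 4-cell to 8-cell shift. Fractions 7 to 10 against 2 to 5 gave 2 in zygotes and 5 in 4-cell embryos, and a light side of fractions 2 to 5, chosen after seeing the data, 2 and 8. With only the stage or stages compared in the fit, heavy against light counts were 2 (GV), 6 (MII), 6 (zygote), 0 (2-cell), 0 (4-cell), 1 (8-cell), 6 (morula) and 15 (blastocyst), and shift counts 1 (GV to MII), 0 (zygote to 2-cell), 0 (2-cell to 4-cell) and 0 (4-cell to 8-cell). Such fits hold fewer samples and estimate the spread from the stages compared alone. The cause of these moves was not tested.

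With the replicate block that pairs both sides of a gradient, the counts were 2 in zygotes and 2 in blastocysts, 5 for the zygote to 2-cell shift and 5 for the 4-cell to 8-cell shift, and no other count moved by over 1.5 times. Under that block the 2-cell call of Ddx20 was lost. Transcriptome letters share only a number: their deviations correlated with a median r of 0.016, and the block left the counts at 16, 4, 0, 6 and 5 in the 5 comparisons without 2-cell embryos. No paired analysis was possible for the transcriptomes of 2-cell embryos because their columns carry other letters.

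Leaving out 1 library at a time gave 16 to 20 calls for GV to MII, 3 to 4 for MII to zygote, 14 to 19 for zygote to 2-cell, 42 to 43 for 2-cell to 4-cell, 0 for 4-cell to 8-cell, 2 (without morula A) to 7 (without 8-cell A) for 8-cell to morula, and 4 (without blastocyst D) to 8 (without morula A) for morula to blastocyst. Without 1 gradient, heavy against light counts were 9 to 10 in 2-cell, 7 (without A) to 11 (without C) in 4-cell and 2 to 5 in 8-cell embryos, and those of the other stages did not move. Shift counts were 0 (without zygote A) to 3 for zygote to 2-cell, 6 to 11 for 2-cell to 4-cell and 1 to 7 (without 4-cell C) for 4-cell to 8-cell.

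The centroid, the mean fraction number weighted by CPM, moved by more than its SD over gradients when fraction 1 was left out: to 7.80, 7.25 and 5.23 for Ddx3x in GV oocytes, morulae and blastocysts, to 7.96 for Ddx39a in blastocysts, and for Dhx30 to 5.33 (MII), 5.04 (2-cell), 4.76 (4-cell), 3.83 (8-cell), 3.82 (morula) and 6.04 (blastocyst). Fraction 1 libraries held as few as 0.0102 M (mega) reads, which limits the light side, and 3 gradients per stage limit every heavy against light test.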

Other observations

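RNA helicases outside the Ddx and Dhx names were followed as a comparison list of 19 genes, chosen with earlier results of these data known. From 2-cell to 4-cell embryos 12 of the 19 rose and 1 fell, with a median change of 1.57. Of all genes, 64.8% were called (31.8% higher, 32.9% lower), with a median change of 0.02. Snrnp200, the helicase that unwinds the U4 and U6 small nuclear RNAs, went from 6.76 to 127 CPM as stage means (change 4.03), and Mtrex, the helicase of the nuclear exosome, rose by 3.46. Znfx1, an antiviral helicase, fell by 3.72, from 38.0 to 2.11 CPM. From morulae to blastocysts Helz rose by 2.41, from 32.9 to 177 CPM, and Tdrd9, a germ cell helicase of the piRNA pathway, fell by 2.52, from 17.9 to 2.48 CPM. In the gradients Eif4a1, the initiation factor helicase, was called on the heavy side in 8-cell embryos (1.42), morulae (1.66) and blastocysts (1.67). Dqx1 was called on the light side in these stages (-4.69, -5.26 and -3.33). Of all genes, 2.43%, 1.64% and 0.633% were called on the heavy and 6.62%, 4.17% and 2.11% on the light side. The alternatives were recorded for members only, so the stability of these calls was not tested.

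Genes whose products work with Ddx6 in mRNA storage and decay were a list of 15. From 2-cell to 4-cell embryos 4 rose and 11 fell, beside 31.8% of all genes called higher and 32.9% lower. The median change was -2.55, and that of all genes 0.02. Eif4e1b, an oocyte cap-binding protein, fell by 6.75, from 217 to 0.952 CPM, and Zar1, an oocyte RNA-binding protein, fell by 4.67, from 42.1 to 0.70 CPM. The decapping genes did not share a direction: Dcp2 fell by 3.66, while Edc3 rose by 4.38, from 0.2 to 23.6 CPM, and Edc4 by 1.25. Ybx1, a major packaging protein of stored mRNA, rose by 1.86. It was called on the light side of the gradient in 4-cell embryos (-1.71), morulae (-1.76) and blastocysts (-2.68). Of all genes, 12.9%, 4.17% and 2.11% were called on the light side in these stages. The stability of the Ybx1 calls was not tested either.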
